A study of Mus musculus with 5 samples.

Results

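The complement genes described here were C3, C4b, C1ra, C1s1, C1qa, C1qb, C1qc, Cfb and Serping1, 9 of the 27729 genes in the deposited tables. They were taken from a list of symbols and matched to Ensembl gene identifiers, with no measured value in the choice. Total RNA came from mouse embryonic fibroblasts (MEFs) of the ICR strain, connective tissue cells of mouse embryos dissected without head and internal organs. The day 0 library was from MEFs grown in medium with fetal bovine serum, and the later libraries were from MEFs kept for 2, 5, 10 or 14 days in serum-free medium for neuronal conversion. The study calls this medium 5C (DMEM/F12 with the N2 supplement, vitamin C, 2-mercaptoethanol, leukemia inhibitory factor and bFGF) and the sample labels call it 6C, and a treatment note gives day 15 where the last library is labelled day 14. Each day had 1 library of a mixed culture, so no comparison has a replicate check, no p-value is given, and time cannot be told apart from the change of medium or from differences between cultures. In such bulk RNA, fewer cells of a type and less RNA per cell cannot be told apart.

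Complement is a set of blood and tissue proteins that mark microbes, debris and cell surfaces. In the classical pathway the recognition protein C1q, built from the chains encoded by C1qa, C1qb and C1qc, carries the proteases C1r and C1s, which cut C4 and C2, and the enzyme they form cuts C3. Factor B, encoded by Cfb, forms the C3-cutting enzyme of the alternative pathway, and C1 inhibitor, encoded by Serping1, blocks C1r and C1s. Liver cells make most circulating complement, macrophages and microglia are the best known source of C1q, and fibroblasts, adipocytes and astrocytes also make several components.

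The libraries held between 2253748 expected counts on day 2 and 3890334 on day 0. Expected counts are RSEM's estimates of reads per gene. A normalized count is an expected count divided by the TMM effective library size and scaled to the geometric mean of the 5 libraries. Folds of single genes are ratios of normalized counts with exact Clopper-Pearson 95% intervals, which cover counting error only, since reads without molecular identifiers are not independent molecules. Levels of different genes are compared only in TPM, which is scaled by gene length. Where 5 values stand in a row, they are those of day 0, 2, 5, 10 and 14 in this order. All comparisons with day 0 share the day 0 library. A count of 3 was taken as the floor of detection in a library, which corresponded to 2.97 normalized counts on day 0 and 5.43 on day 2.

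The 9 genes followed separate time courses. In normalized counts the 3 C1q genes were near their highest level by day 2, whereas C3, C4b, C1ra, C1s1, Cfb and Serping1 were highest on day 14. In TPM the C1q genes were higher on day 5 (46.9 to 64.4) than on day 2 (31.7 to 40.7). Of the 6 genes outside C1q, Serping1 was at 22.1 TPM on day 2 and the other 5 at no more than 6.37 (C1ra). The lowest C1q chain, C1qa, was at 31.7 TPM, 1.44 times Serping1, which was within counting error (0.994 to 2.02). Together the 9 genes held 0.00232, 0.0159, 0.0520, 0.116 and 0.150% of the expected counts. Their summed level was 19.7, 142, 463, 987 and 1157 TPM. All 9 reached the minimum of 10 expected counts in at least 1 library that kept 13346 genes, although C3, C4b, C1s1, C1qa, C1qb and Cfb were under it on day 0 and were kept through their later libraries.

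**Figure D1:**
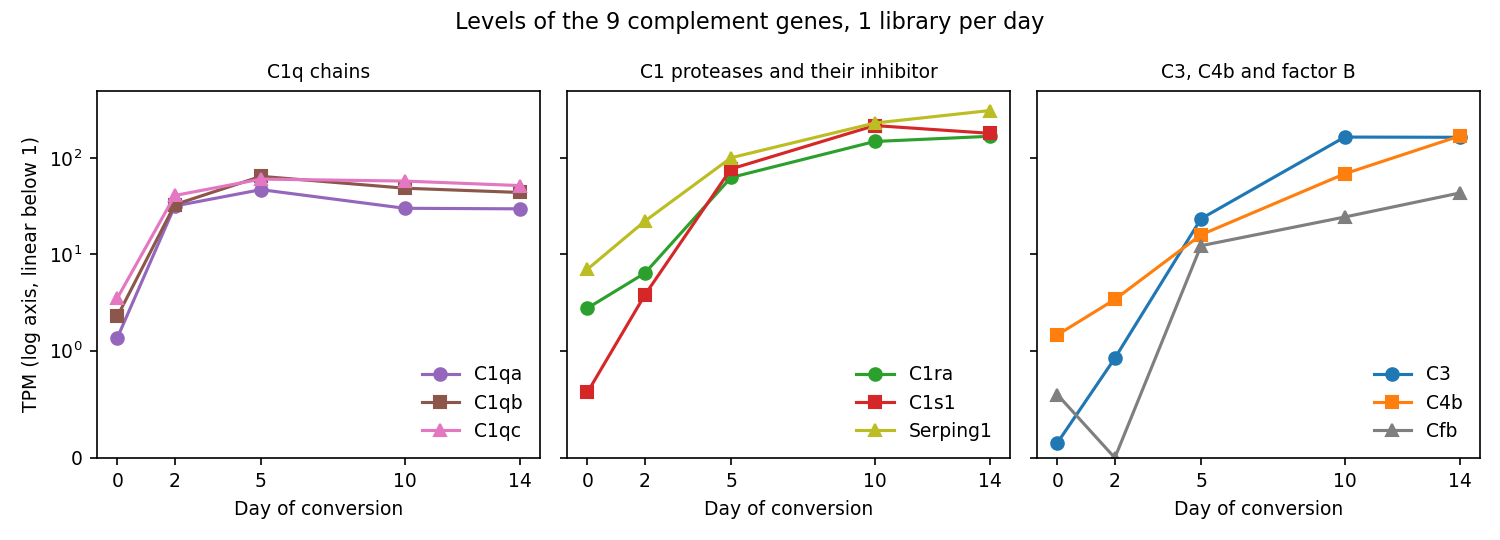
Level in TPM (logarithmic axis, linear below 1) of the 9 complement genes against the day of conversion, with 1 point per library and no error bars because each day had 1 library. The C1q chains lay between 31.7 and 40.7 TPM by day 2, while Serping1 reached 310 TPM and C1ra, C1s1, C3 and C4b lay between 164 and 180 TPM on day 14.

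By a change of over 2-fold in log2(normalized count + 1), 8 of 9 genes were above day 0 on day 2 and 1 was below, where 15.2% of all kept genes were above and 13.1% below. On day 5 all 9 were above, against 20.2% of kept genes above and 13.6% below. On day 10 all 9 were above, against 28.7% above and 22.3% below, and on day 14 all 9 were above, against 24.5% above and 19.9% below. The median log2 change of the 9 genes was 2.54, 3.94, 4.47 and 4.98 on the 4 later days, where the median of all kept genes was −0.03, 0.05, 0.14 and 0.07. The gene counted as below on day 2 was Cfb, with 1.5 expected counts in the first library and 0 in the second, both under the floor, so it gives no fold for that day. C4b on day 2, with 4.61 expected counts, also did not differ from day 0 beyond counting error. The steps between neighbouring libraries were unequal. From day 2 to day 5, 6 of the 9 were over 2-fold higher and 0 lower, where 19% of kept genes were higher and 12.5% lower. From day 5 to day 10, 3 were higher (C3, C4b and Cfb) and 1 lower (C1qa), where 12.8% of kept genes were higher and 9.5% lower. From day 10 to day 14, 2 were higher (C4b and Cfb) and 0 lower, where 4.73% of kept genes were higher and 8.33% lower.

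**Figure D2:**
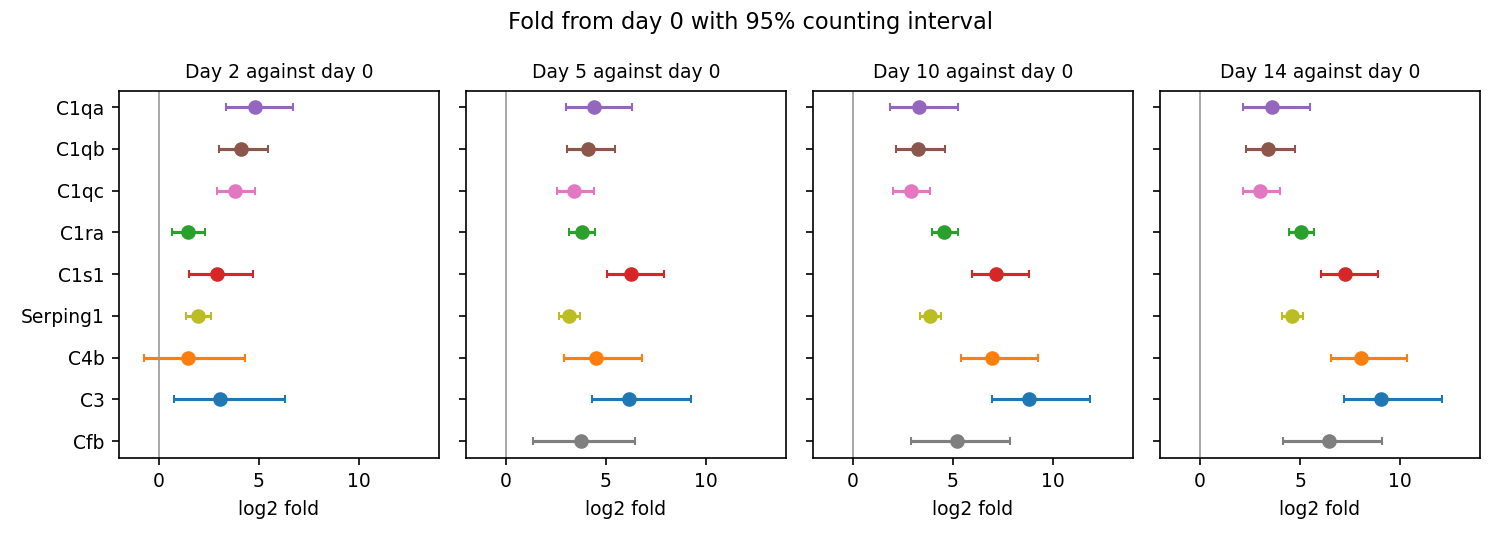
Log2 fold of normalized counts from day 0 (horizontal axis) for each complement gene on days 2, 5, 10 and 14, with bars for exact 95% counting intervals and a vertical line at no change. Cfb has no point on day 2, where both counts were under 3, and the interval of C4b on day 2 crosses the line. The C1q points lie farthest right on day 2 or 5, and those of the other genes on day 14.

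C1qa, C1qb and C1qc encode the A, B and C chains of C1q, which assemble in equal numbers. C1qa (ENSMUSG00000036887) had 4, 61, 96, 55 and 53 expected counts. C1qb (ENSMUSG00000036905) had 7, 66, 138, 93 and 82. C1qc (ENSMUSG00000036896) had 12, 91, 143, 122 and 107. All 3 were low on day 0 and well above it in each of the 4 later libraries. On day 2 C1qa was 27.9-fold above day 0 (95% counting interval 10.3 to 106), C1qb 17.2-fold (7.91 to 44.5) and C1qc 13.9-fold (7.56 to 27.8). These intervals overlap, so no chain was distinguishable from the others in its change.

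The C1q genes were lower on day 10 than on day 5. Their ratio of day 10 to day 5 was 0.468 (0.329 to 0.658) for C1qa, 0.550 (0.418 to 0.721) for C1qb and 0.696 (0.542 to 0.893) for C1qc. It lay under 1 in each of 6 scalings of the libraries, but its size depended on the scaling. In TPM the ratios were 0.641, 0.754 and 0.954 in the same order, so C1qc was nearly level. From day 10 to day 14 no chain differed beyond counting error, with ratios of 1.21 (0.811 to 1.79), 1.10 (0.810 to 1.50) and 1.10 (0.839 to 1.44). The step from day 2 to day 5 had no settled direction. Its ratios of normalized counts were 0.761 (0.547 to 1.07), 1.01 (0.749 to 1.38) and 0.760 (0.580 to 1.00) in the same order, but those of TPM were 1.48, 1.96 and 1.48. Summed over the 3 chains, the day 2 library was 17.3-fold above day 0 (11.3 to 27.9), that of day 5 14.5-fold (9.51 to 23.1), that of day 10 8.47-fold (5.53 to 13.6) and that of day 14 9.50-fold (6.19 to 15.3). The 3 transcripts are short, between 1040 and 1203 bases in the deposited lengths, and belong to the shortest 20% of kept genes. The median log2 change of those short genes was 0.12, −0.57, −1.15 and −0.78 on the 4 later days, and the part of gene length in the C1q values was not tested.

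The proportions of the chains varied less than their sum. C1qa made up 19.0, 30.1, 27.3, 22.1 and 23.7% of the summed C1q TPM. C1qb made up between 31.1% on day 2 and 37.5% on day 5, and C1qc between 35.1% on day 5 and 49.2% on day 0. By counts, the exact 95% interval of the C1qa share was 22.1 to 34.4% on day 2, which overlaps that of 16.9 to 27.6% on day 14. On day 0 the 3 chains together had 23 expected counts, and the C1qa share could lie between 4.95 and 38.8%.

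The C1q genes are neighbours on mouse chromosome 4 (GRCm38), all on the minus strand. C1qb lies at chr4:136880129-136886187, C1qc at chr4:136889804-136893065 and C1qa at chr4:136895917-136898803, with 3616 and 2851 bases between them and no annotated gene in the gaps. The reference windows of RefSeq (GRCm38.p6) hold the start sites of C1qb and C1qc. The 250 bases upstream of these start sites are shown because these genes moved together. The RefSeq start site of C1qc lies inside the gene as placed above, so its window partly overlaps that gene. Capitals mark GAGGAA or its complement TTCCTC, the core bound by PU.1, a transcription factor of macrophages encoded by Spi1.
C1qb, chr4:136886201-136886450, minus strand: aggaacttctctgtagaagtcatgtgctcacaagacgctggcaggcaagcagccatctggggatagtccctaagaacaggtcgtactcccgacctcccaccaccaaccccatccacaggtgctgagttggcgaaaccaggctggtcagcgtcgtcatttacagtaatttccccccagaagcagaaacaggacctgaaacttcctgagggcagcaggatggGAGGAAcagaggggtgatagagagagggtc
C1qc, chr4:136892915-136893164, minus strand: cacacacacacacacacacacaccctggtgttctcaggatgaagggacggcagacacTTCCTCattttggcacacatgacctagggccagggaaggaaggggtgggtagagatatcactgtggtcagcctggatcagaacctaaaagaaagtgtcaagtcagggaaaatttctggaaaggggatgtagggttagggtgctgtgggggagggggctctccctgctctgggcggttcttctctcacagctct
The C1qb window has the core on the gene's own strand, 30 to 25 bases before the start site, and the C1qc window has it on the opposite strand, 193 to 188 bases before. The core occurred in these 2 windows and in 0 of the 4 windows held for C1ra, C1s1 and C3, and in 23.3% of all 32851 reference windows of this length. The kappaB motif occurred in the C1qc window, at 41 to 32 bases before the RefSeq start site, and in 7.25% of all windows. This match lies in the part of the window inside the gene as placed above. Both strands were searched, matches of different motifs did not overlap, and a match is a description of the sequence only.

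The level of C1q was read beside macrophage markers, and their part in the result was not tested. The 14 listed markers summed to 62.5, 453, 1652, 1163 and 685 TPM. Of the 12 with enough counts, 10 were over 2-fold above day 0 on day 2 with counts over the floor. All 12 were above on day 5, and 10 on days 10 and 14. The other 2 on day 2 were at or under 3 counts in both libraries. Of all kept genes, 15.2, 20.2, 28.7 and 24.5% were above on days 2, 5, 10 and 14. Adgre1, Aif1, Fcgr1, Mrc1, Ptprc, Spi1 and Marco had under 10 expected counts on day 0 and were kept through later libraries. The marker with the highest log2 change on day 14 was Mrc1, the mannose receptor (4.02), with 2, 20, 119, 173 and 53 expected counts over the 5 libraries. The lowest was Cx3cr1, the fractalkine receptor, at 0 counts on days 10 and 14 and at most 2.87 elsewhere. It was under the floor in every library and gives no fold. The kept markers not over 2-fold above day 0 on days 10 and 14 were Csf1r and Aif1. Their log2 changes on day 14 were 0.54 and 0.10. Ptprc, the leukocyte antigen CD45, and Marco, a scavenger receptor, were at 0 on day 0. Ptprc then had 1, 8, 22 and 4 counts. Lyz2, the lysozyme of macrophages, held most of the sum from day 2 on. C1q amounted to 11.4, 23.2, 10.4, 11.7 and 18.2% of the summed marker TPM, and without Lyz2 to 22.2, 59.6, 42.9, 48.4 and 67.3%. In TPM, C1q and the markers were both highest on day 5. In normalized counts summed C1q was highest on day 2, at 394, and the summed markers on day 5, at 3638.

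**Figure D3:**
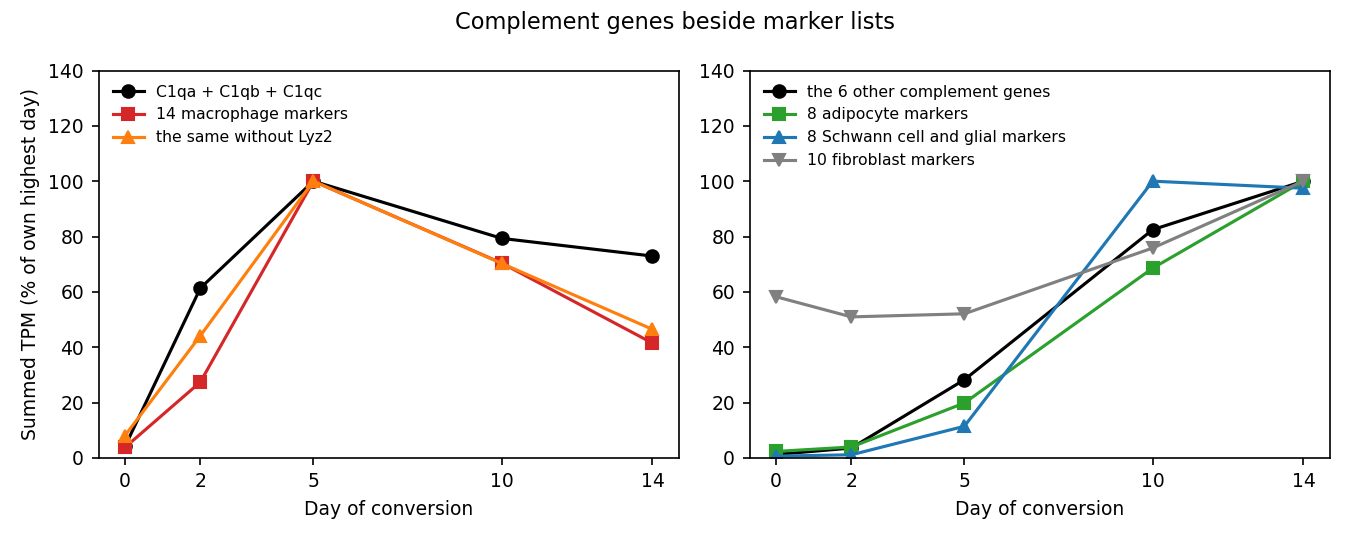
Summed TPM as a percentage of each sum's own highest day, by day of conversion, with 1 point per library. On the left, C1q and the macrophage markers were highest on day 5. On the right, the 6 other complement genes, the adipocyte markers and the fibroblast markers were highest on day 14 and the Schwann cell and glial markers on day 10.

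C1ra and C1s1 encode the proteases C1r and C1s, which circulate bound to C1q. C1ra (ENSMUSG00000055172) had 21.8, 33.0, 341, 719.9 and 797 expected counts. C1s1 (ENSMUSG00000038521) had 5.08, 20.7, 435, 1009 and 869. The largest estimated step of both was from day 2 to day 5, at 5.00-fold for C1ra (3.49 to 7.38) and 10.1-fold for C1s1 (6.47 to 16.4). The step from day 0 to day 2 was 2.77-fold for C1ra (1.55 to 4.94) and 7.46-fold for C1s1 (2.82 to 26.1). These intervals overlap those of the later step, so counting error does not settle which was larger. On day 14 C1ra was 33.0-fold (21.5 to 52.5) and C1s1 154-fold (67.0 to 485) above day 0. From day 10 to day 14 C1ra was 1.39-fold higher (1.25 to 1.53), while C1s1 at 1.08-fold (0.983 to 1.18) did not differ beyond counting error and was lower in TPM (216 against 180). Within 1 library the 2 proteases can be compared without a scaling between libraries. C1s1 was at 0.221, 0.593, 1.23, 1.46 and 1.07 times the TPM of C1ra. The counting interval lay below 1 on day 0 (0.0636 to 0.582), above 1 on days 5 and 10, and included 1 on days 2 and 14.

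The mean level of the protease genes was below that of the C1q chains on day 2 and above it from day 5 on, although on day 5 single genes of both groups were within counting error of each other in the order of TPM. The mean of C1ra and C1s1 was 1.69, 5.08, 69.7, 182 and 174 TPM. The mean of the 3 C1q chains was 2.38, 35.1, 57.2, 45.3 and 41.7 TPM. The chains were at 6.91 times the proteases on day 2, and the proteases at 4.17 times the chains on day 14. C1ra at chr6:124512405-124523443, plus strand, and C1s1 at chr6:124530345-124542359, minus strand, lie 6901 bases apart with no annotated gene between. C1s1 overlaps the antisense gene Gm16567, which had 0 counts in every library. Each protease gene has a near copy further along, and reads of close copies may be split between them. C1rb had 3.11, 0, 41.4, 63.1 and 87.1 expected counts, and C1s2 had 3.92, 8.28, 51.1, 80.6 and 73.9. With its copy added, the day 14 fold was 32.1 for C1r (21.5 to 49.6) and 94.6 for C1s (49.6 to 208).

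Serping1 (ENSMUSG00000023224), which encodes the inhibitor of both proteases, was the member with the highest level in 4 of 5 libraries. It had 34, 73, 345, 679 and 918 expected counts, each above the one before. In TPM these were 6.99, 22.1, 100.3, 229.8 and 309.6. Against day 0, Serping1 was 3.92-fold higher by day 2 (2.58 to 6.08), 8.97-fold by day 5 (6.30 to 13.2), 14.4-fold by day 10 (10.2 to 21.0) and 24.4-fold by day 14 (17.3 to 35.4). Its step from day 10 to day 14 was 1.69-fold (1.53 to 1.87) and was above 1 in all 6 scalings. The gene lies at chr2:84765387-84775444 on the minus strand. On day 14 Serping1 was at 1.72 times the TPM of C1s1, the next member (1.56 to 1.89), and on day 10 at 1.06 times, which did not differ beyond counting error (0.961 to 1.17).

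C4b (ENSMUSG00000073418) encodes C4, the first substrate of C1s. It had 3.05, 4.61, 77.7, 524 and 906 expected counts. C4b was near the floor on days 0 and 2 and was still higher in the last library than in the one before. Its fold from day 0 was 2.76 by day 2 (0.593 to 19.6), 22.5 by day 5 (7.58 to 114), 124 by day 10 (42.9 to 613) and 268 by day 14 (93.0 to 1325), and its step from day 10 to day 14 was 2.17-fold (1.94 to 2.41). C4b lies at chr17:34728380-34743882, minus strand. C4a, a near copy in the same region, had 11.9, 3.39, 11.3, 36.5 and 26.1 expected counts. With C4a added, the fold was 0.975 by day 2 (0.358 to 2.45), 5.25 by day 5 (3.02 to 9.76), 26.9 by day 10 (16.2 to 48.5) and 56.1 by day 14 (33.8 to 101). The pair was thus level with day 0 within counting error on day 2, and its fold on day 14 was below the interval for C4b alone. C4b made up 97.2% of the pair's counts on day 14.

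C3 (ENSMUSG00000024164), the component on which all complement pathways meet, had the highest estimated fold of the 9 on day 14, with an interval that overlaps those of C4b and C1s1. It had 2, 9, 164, 1234 and 1168 expected counts. In normalized counts these were 1.98, 16.3, 144, 881 and 1044. C3 was below the floor on day 0 and among the more abundant members from day 10. The ratio to day 0 was 8.23 by day 2 (1.70 to 78.2), 72.5 by day 5 (19.8 to 604), 445 by day 10 (123 to 3680) and 527 by day 14 (146 to 4361), with wide intervals because of the 2 counts on day 0. Between libraries with more counts, C3 was 8.81-fold higher on day 5 than on day 2 (4.53 to 19.6) and 6.14-fold higher on day 10 than on day 5 (5.21 to 7.27). The last step was 1.18-fold in normalized counts (1.09 to 1.28), but in TPM C3 was at 164.4 on day 10 and 163.5 on day 14. C3 lies at chr17:57203970-57228136 on the minus strand. Its 250 upstream bases (RefSeq, GRCm38.p6) are shown because its estimated fold was the highest, with capitals for TTNNGNAA or its complement, a motif bound by C/EBP factors, which are active in adipocytes and in acute inflammation.
C3, chr17:57228137-57228386, minus strand: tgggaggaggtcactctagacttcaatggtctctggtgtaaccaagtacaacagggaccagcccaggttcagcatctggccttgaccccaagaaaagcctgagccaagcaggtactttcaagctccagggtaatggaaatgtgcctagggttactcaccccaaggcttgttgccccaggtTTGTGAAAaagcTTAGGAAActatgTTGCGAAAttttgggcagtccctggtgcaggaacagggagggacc
The window has 3 matches, at 70 to 63, 58 to 51 and 45 to 38 bases before the start site, the last on both strands. The motif occurred in 5 of the 6 windows of C1qb, C1qc, C1ra, C1s1 (with 2 start sites) and C3, all but that of C1qb, and in 36.8% of all 32851 windows. The 2 windows of C1s1 overlap and share a match, so they are not separate. Most of the C1ra window, with its matches, lies inside the gene as placed above. A STAT motif (TTCNNNGAA), an interferon response motif (GAAANNGAA) and a TATA box (TATAAA) occurred in 0 of these 6 windows and in 7.02, 7.13 and 12.4% of all windows.

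Cfb (ENSMUSG00000090231) had 1.5, 0, 22.6, 75.8 and 146 expected counts. It was not detectable above the floor in the first 2 libraries and higher in each of the next. On day 5 it was at least 3.65-fold higher than on day 2, whose library was set to the floor of 3 counts. It was 2.74-fold higher on day 10 than on day 5 (1.67 to 4.51) and 2.41-fold higher on day 14 than on day 10 (1.81 to 3.22). The ratio of day 14 to day 0 was 88.0 (17.9 to 550), with a wide interval because it rests on 1.5 counts on day 0. Cfb lies at chr17:34856374-34862518 on the minus strand, 85 bases from C2, which encodes the classical pathway's counterpart of factor B. Both overlap Gm20547 on the same strand, which had 2.68, 2.08, 28.0, 32.3 and 10.9 expected counts, so reads of these genes may be split. Summed over Cfb, Gm20547 and C2, day 14 was 8.78-fold above day 0 (6.30 to 12.5).

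Some TPM ratios also depend on the transcripts that RSEM assigned. The deposited length of C4b, weighted by transcript, varied from 749 bases on days 0 and 2 to 4322 on day 10, that of Cfb from 905 to 2397 and that of C3 from 3541 to 5136, while those of C1ra and the C1q chains were constant. TPM of C4b was 1.46, 3.40, 15.9, 68.4 and 168.5. On day 0 each neighbouring pair in the order of TPM below C1qc could not be told apart by counting error. On day 2 the 3 C1q chains led, and none differed from the next in order. On day 14 C1s1, C4b, C1ra and C3 lay between 179.9 and 163.5 TPM with no difference between neighbours beyond counting error, and C3 was at 3.17 times C1qc (2.61 to 3.92).

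The 6 members outside C1q were read beside markers of other cell types that make complement, whose part in the result was not tested. Their summed level was 12.6, 36.5, 291, 851 and 1032 TPM. Adipocyte markers summed to 54.9, 93.1, 471, 1631 and 2379 TPM. Of the 7 kept markers, 6 were over 2-fold above day 0 on days 10 and 14, where 28.7 and 24.5% of all kept genes were. Much of the adipocyte sum was Fabp4, with 35.25 of 54.9 TPM on day 0 and 1739 of 2379 on day 14. Adipoq, the hormone adiponectin, had the highest change on day 14 (log2 7.89), and Pparg, the main regulator of fat cell differentiation, the lowest (0.71). Adipoq, Plin1, Cidec and Lep were at 0 on days 0 and 2. Schwann cell and glial markers summed to 9.26, 16.4, 170, 1494 and 1456 TPM. All 8 were over 2-fold above day 0 on days 10 and 14, against the same 28.7 and 24.5% of all kept genes. Sox10, a glial and neural crest transcription factor, had the highest change on day 14 (log2 7.97) and S100b, a calcium-binding protein, the lowest (3.11), while Gfap, an intermediate filament of astrocytes, was at 0 on day 0.

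The 10 listed fibroblast markers all had counts in every library, summing to between 13976 TPM on day 2 and 27434 on day 14. Whether the cells kept a fibroblast identity was not tested. Much of this sum was Vim and S100a4, with 14287 of 15975 TPM on day 0 and 18110 of 27434 on day 14. Of the 10, 4 were over 2-fold above day 0 on each later day and 2, 2, 3 and 2 below. Of all kept genes, 15.2, 20.2, 28.7 and 24.5% were above on these days and 13.1, 13.6, 22.3 and 19.9% below. Lum, the matrix proteoglycan lumican, had the highest change on day 14 (log2 5.91) and S100a4 the lowest (−2.41). Hepatocyte markers were at or near 0. Between 5 and 8 of the 8 markers had 0 counts in each library, and Alb, serum albumin, had 0, 1, 1, 5 and 12. Neuron markers summed to 102.7 TPM on day 0, 51.3 on day 2 and 126.8 on day 14, with Rbfox3 at 0 in every library and Dcx at 0 from day 2 on. Among them Tubb3, the TuJ1 antigen, was 2.81 higher than day 0 on the log2 scale on day 14, Syp, a synaptic vesicle protein, had the highest change (5.07) and Map2 the lowest (−2.08). Endothelial markers summed to 23.0 TPM on day 0 and 2.64 on day 14, with Cldn5 at 0 in every library and Kdr lowest (−5.69). Cdh5 and Tek were highest (0.49), but each had 1 count on day 0 and 2 on day 14, under the floor, and gives no fold.

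Most of the other kept complement genes were above day 0 from day 5 on. Of 51 further listed genes, 29 had enough counts, and 14, 21, 24 and 21 of them were over 2-fold above day 0 on the 4 later days, with 2, 1, 1 and 1 below, where the shares of all kept genes are those given above. On day 2, 5 of the 14 above and 1 of the 2 below had 3 counts or fewer in both libraries and give no fold, as did 1 of the 24 above on day 10. Their median log2 change was 0.81, 2.29, 2.75 and 2.24. Of the classical and lectin genes, C2 had 34.8, 33.9, 182, 266 and 222 expected counts, 5.77-fold above day 0 on day 14 (3.998 to 8.43). Colec12, a scavenger receptor with a collectin domain, had 239.8, 191, 2092, 2443 and 1260 and was highest in the middle of the course, 7.71-fold above day 0 on day 5 (6.74 to 8.85). Cfp, properdin, which stabilises the alternative pathway enzyme, had 15, 45, 133, 84 and 58, 7.84-fold above day 0 on day 5 (4.59 to 14.4).

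Regulators other than Serping1 had varied courses. Clu, clusterin, which binds the terminal complex, had 37, 82, 396, 473 and 369 expected counts, 9.46-fold above day 0 on day 5 (6.75 to 13.6) and 9.01-fold on day 14 (6.41 to 13.0). Cd55, the decay-accelerating factor, had 58, 55.3, 323, 446 and 241, and Cd59a, which blocks the membrane attack complex, had 88, 80.6, 117, 452 and 373. Their day 14 folds were 3.75 (2.81 to 5.09) and 3.83 (3.03 to 4.89). Csmd1, a membrane inhibitor of C3 convertases, had 3, 2, 33, 537 and 303, and was 129-fold above day 0 on day 10 (44.0 to 628). Cr1l (Crry), the rodent membrane regulator of C3, had 110, 49, 123, 120 and 131, and its fold on day 14 was 1.08 (0.828 to 1.40), within counting error. Itgam, a chain of the C3 fragment receptor CR3, was the only kept complement gene over 2-fold below day 0 on days 5, 10 and 14, with 62.5, 97.9, 20.1, 9.53 and 8.06 counts, and it was singled out after its values were seen. Itgam is also used as a macrophage marker but was not among the 14 listed above. Of the 5 kept complement receptors, Itgam among them, 4, 3 and 3 were over 2-fold above day 0 on days 5, 10 and 14. On these days 20.2, 28.7 and 24.5% of all kept genes were above and 13.6, 22.3 and 19.9% below.

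**Figure D4:**
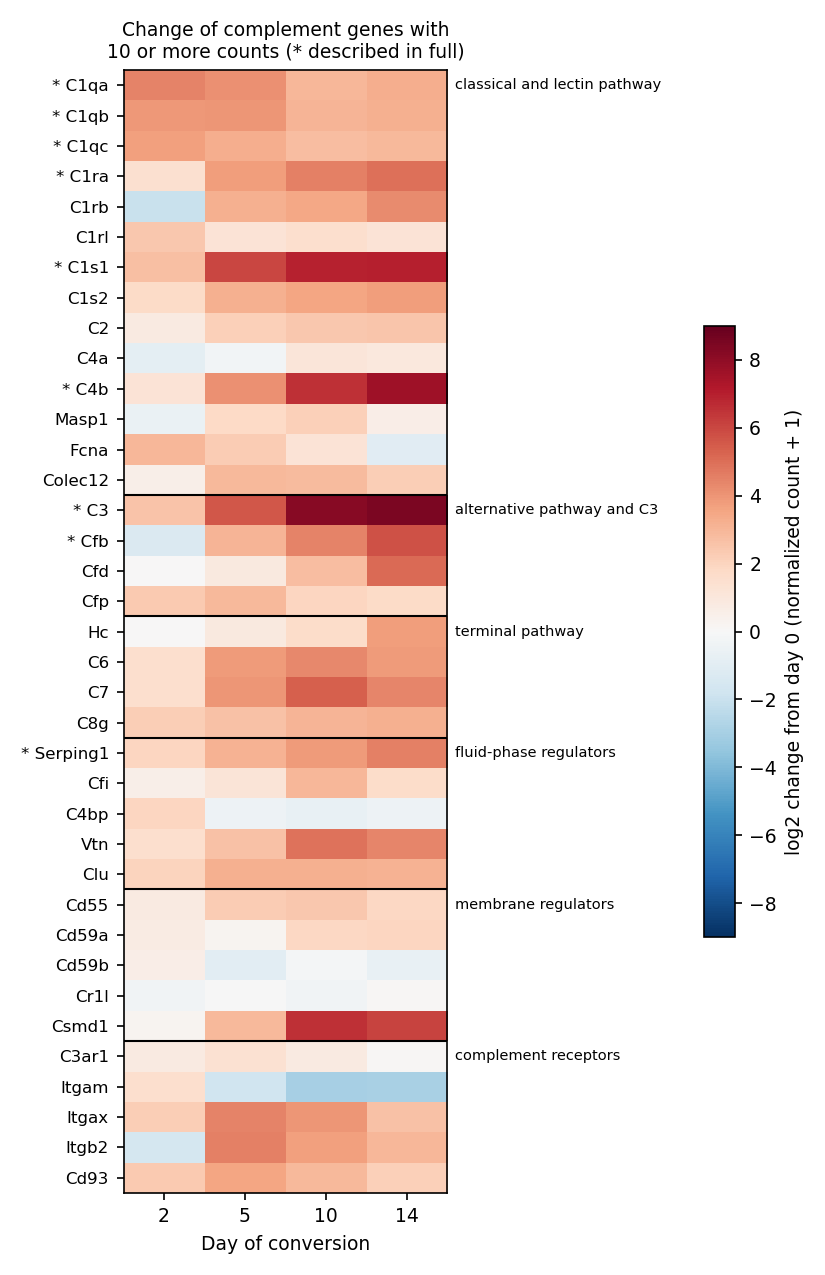
Log2 change from day 0 of normalized count + 1 on days 2, 5, 10 and 14 for 37 complement genes that passed the count minimum, in blocks by pathway, with stars at the 9 genes described in full. C3 and C4b have the darkest red on day 14, the C1q chains are darkest on day 2 or 5, and Itgam is blue from day 5 on.

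The genes with the most similar time courses were found among 8248 other genes that reached 100 expected counts in any library, by the root mean square difference of the log2 changes on the 4 later days. For C3 they included Chl1, a neural cell adhesion molecule (0.44), and Gjc3, a glial gap junction protein (0.48). C4b was nearest to Col6a6, a collagen VI chain (0.29), B3galt2, a galactosyltransferase (0.49), and Plekhb1 (0.49). For Serping1 they were Tcp11l2 (0.16), H2-Q6, an MHC class I gene (0.19), and Igfbp4, a binding protein of insulin-like growth factors (0.26). The mean of the 3 C1q chains was nearest to Trem2, a receptor of macrophages and microglia (0.36), Ly6a, the Sca-1 antigen (0.36), and Tspan11, a tetraspanin (0.37). Trem2 had 7.92, 147, 114, 45.7 and 58.1 normalized counts, highest on day 2. In normalized counts the C1q mean was also highest on day 2, but in TPM the C1q chains were higher on day 5. Time courses were compared in normalized counts only. Col6a6, B3galt2 and Gjc3 had 0 counts on day 0, where C3 and C4b had 1.98 and 3.02 normalized counts. The changes of these genes, and so their distances, depend on the pseudocount of 1.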

How the data were processed

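Total RNA of MEFs on day 0 and on day 2, 5, 10 and 14 of conversion was sequenced by the authors after Trizol extraction and TruSeq library preparation, with 1 library per day. The kit does not mark strand. Samples were grouped by the day in their labels. The authors deposited, for each gene, expected counts (RSEM's estimated counts, not scaled), TPM and FPKM, and the FPKM values were not used. The submitters' processing notes name Bowtie, RSEM and mm10, without versions, and the annotation release is not given in the sources used here.

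GENCODE M21 (GRCm38) gave names to 27247 of the 27729 identifiers. Expected counts were rounded for TMM in edgeR 4.0.16 (R 4.3.3). Log2 changes used normalized counts with a pseudocount of 1, and folds of single genes used none. The 13346 genes that reached 10 expected counts in any library were kept, and changes over 2-fold were counted. No test between days was possible. Intervals were computed with scipy 1.17.1, figures with matplotlib 3.10.9, and the computations were tested on simulated data.

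The members, lists and alternatives were chosen with earlier results of these data known. Named were all 9 members, other listed complement genes that reached 100 expected counts in any library, the markers of each list with the highest and lowest change on day 14 and those defining markers at 0, near copies of members, and the 3 genes nearest in time course to C3, C4b, Serping1 and the C1q mean, and a few genes that this rule names are not reported here. Promoter windows of RefSeq (GRCm38.p6) held 5 of the 9 members, and those of C4b, C1qa, Cfb and Serping1 were not analysed here. The alternatives were DESeq2 size factors (1.42.0), TPM with a pseudocount of 1, quantile normalization (limma 3.58.1), total counts, TMM without Gm42418 and Lars2 or without the day 2 library, a pseudocount of 5, a 4-fold threshold and other filters. TPM ratios without a pseudocount and summing near copies were added after seeing the data.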

Additional observations from a re-analysis of the deposited data

How the results depend on the processing

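No paired analysis was possible because each day had 1 library and no test was run. The number of members over 2-fold above day 0 on day 2 was 8 and became 5 with TPM + 1 and 5 with a 4-fold threshold. TPM ratios without a pseudocount, added after seeing the data, again gave 8, so the pseudocount on TPM units removed these 3 calls. The number below on day 2 was 1 (Cfb) and became 0 with TPM + 1, with a pseudocount of 5 and with a 4-fold threshold. The members' median log2 change on day 14 was 4.98 and became 4.42 with a pseudocount of 5, that on day 2 was 2.54 and became 1.53 with TPM + 1 and 1.83 with a pseudocount of 5, and that on day 10 was 4.47 and became 3.66 with a pseudocount of 5. All 9 members stayed above day 0 on days 5, 10 and 14 under each alternative scaling, the pseudocount of 5 and the 4-fold threshold, and member counts were not run under the other filters. Of 237 single values of members that have a counting interval, 229 stayed within it under the alternatives for scaling and pseudocount and 8 moved, all 8 with TPM + 1, and none changed sign. With TPM and no pseudocount 28 of 35 stayed and 7 moved, those of C1ra and Serping1 on days 5, 10 and 14 and of C1qc on day 10, all upward. With C4a added, the log2 change of C4b on day 2 went from 1.22 to -0.034, and its other 3 values moved (to 2.32, 4.66 and 5.72 on days 5, 10 and 14). The median log2 change of all genes was −0.20, 0.61, 1.09 and 0.78 on days 2, 5, 10 and 14 with TPM + 1 and −0.11, 0.41, 0.60 and 0.42 with total counts, against −0.03, 0.05, 0.14 and 0.07 with TMM, so these scalings move the middle of all genes by the difference. With TPM + 1, 7.90% of all genes were over 2-fold above day 0 on day 2, 32.0, 52.9 and 41.6% on the next 3 days, and 3.98, 6.77 and 6.97% were below on days 5, 10 and 14. With total counts 7.55% were below on day 5 and 14.5% on day 10. With a 4-fold threshold 5.36, 8.70, 13.9 and 11.7% were above and 2.92, 2.78, 7.92 and 6.11% below on the 4 days. Without a filter 13.0, 18.1 and 15.1% were above on days 5, 10 and 14 and 8.41, 8.79, 12.9 and 12.1% below on the 4 days, and with 10 counts in all 5 libraries 9.62, 11.3, 18.7 and 15.6% were above. Between neighbouring libraries, 6 scalings gave the same direction for all 9 members from day 5 to day 10, and gave both directions for C1qa, C1qb and C1qc from day 2 to day 5 and for these, C3 and C1s1 from day 10 to day 14. Depth limits the day 0 values of C3, C4b and Cfb, which rest on 3.05 counts or fewer.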

Other observations

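The terminal pathway, whose products build the membrane attack complex, was at 0 counts for all 7 listed genes on day 0 and stayed low. C7 had 0, 1, 17, 57.0 and 22 expected counts over the 5 libraries, C6 had 0, 1, 15, 26 and 15, C8g had 0, 2, 6, 10 and 9, and Hc, which encodes C5, had 0, 0, 1, 3 and 14. C8b was at 0 in every library, and C8a and C9 had at most 2 counts. Cfd, factor D, an adipocyte-made protease that activates factor B, had 0, 0, 1, 8 and 38 counts and was at least 11.4-fold above the floor of 3 counts in the day 0 library on day 14. The mannose-binding lectin gene Mbl2, the ficolin Fcnb and the C3b receptor Vsig4 were at 0 in every library. A count of 0 allows up to 1.33 per 1000000 counts on day 2 and up to between 0.771 and 0.892 per 1000000 in the other libraries. These genes were named after their values were seen.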
